A study of Mus musculus with 24 samples.

Results

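Myc-high and Myc-low cells are the 6 cells with the most and the 6 with the least Myc RNA among 19 erythroid progenitors of the mouse fetal liver, out of 24 single cells profiled. A cell was kept for the ranking if its RNA held Klf1, an erythroid transcription factor, at 10 CPM or more, where CPM is the gene's counts divided by all counts of the cell and scaled to 1000000. The 7 kept cells in the middle of the ranking belong to neither set and are called the cells between, and 5 cells fell under the Klf1 threshold. The sets were chosen by the measured level of Myc, so the values of Myc describe the choice. Every gene was read in the same cells, and its difference between the sets is given as a description with no test.

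All 24 cells were sorted as BFU-E, or burst-forming units of the erythroid lineage, from embryonic day 14.5 fetal liver of mice of the strain C57/Bl6J, with no treatment named. Both sets share this origin, and so does every other cell. Before sorting, the liver cells were depleted of those carrying lineage antigens, Sca-1, CD16/32 or CD41, and the remainder was sorted after staining for CD117, CD71 and CD24 into wells of 1 plate. Libraries were made by Smart-seq2, in which whole polyadenylated transcripts are reverse transcribed in the well and amplified by PCR. It adds no molecular identifiers, and strand was not recorded. No embryo is named for any cell, so the 24 cells count as 1 sample, and every SD below is a spread over cells.

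MYC is a transcription factor that pairs with MAX and binds DNA at E-boxes, of which the palindrome CACGTG is the classical form. MAX also pairs with the MXD proteins, MNT and MGA, which repress at such sites, and MLX with MLXIP or MLXIPL forms a related branch. MYC is known for raising the genes of ribosome production, translation, metabolism and division, and red cell precursors switch it off as they mature. BFU-E are early red cell progenitors that divide many times before that point.

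Myc (ENSMUSG00000022346, GRCm38 chromosome 15, 61985391 to 61990374) stood at 1755, 1605, 1479, 1345, 1342 and 1188 CPM in the Myc-high cells 3, 11, 21, 6, 13 and 2. In the Myc-low cells 4, 18, 17, 16, 5 and 22 it stood at 745, 672, 571, 553, 462 and 190 CPM. The means were 1452 ± 204 and 532 ± 194 CPM (SD, n = 6 cells in each set), a ratio of 2.73, and the cells between averaged 892 ± 80.4 CPM (SD, n = 7 cells). Every cell held Myc RNA, so the sets differ in level and not in presence. At the edges of the ranking, cell 2 lay inside the Myc-high set at 1188 CPM and cell 8 outside it at 989, while cell 4 lay inside the Myc-low set at 745 and cell 12 outside it at 793. At the Klf1 threshold, cell 10 was kept with 32.4 CPM of Klf1 and cell 24 was left out with 8.12. In the 5 cells left out Myc ran from 76.4 to 888 CPM.

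**Figure D1:**
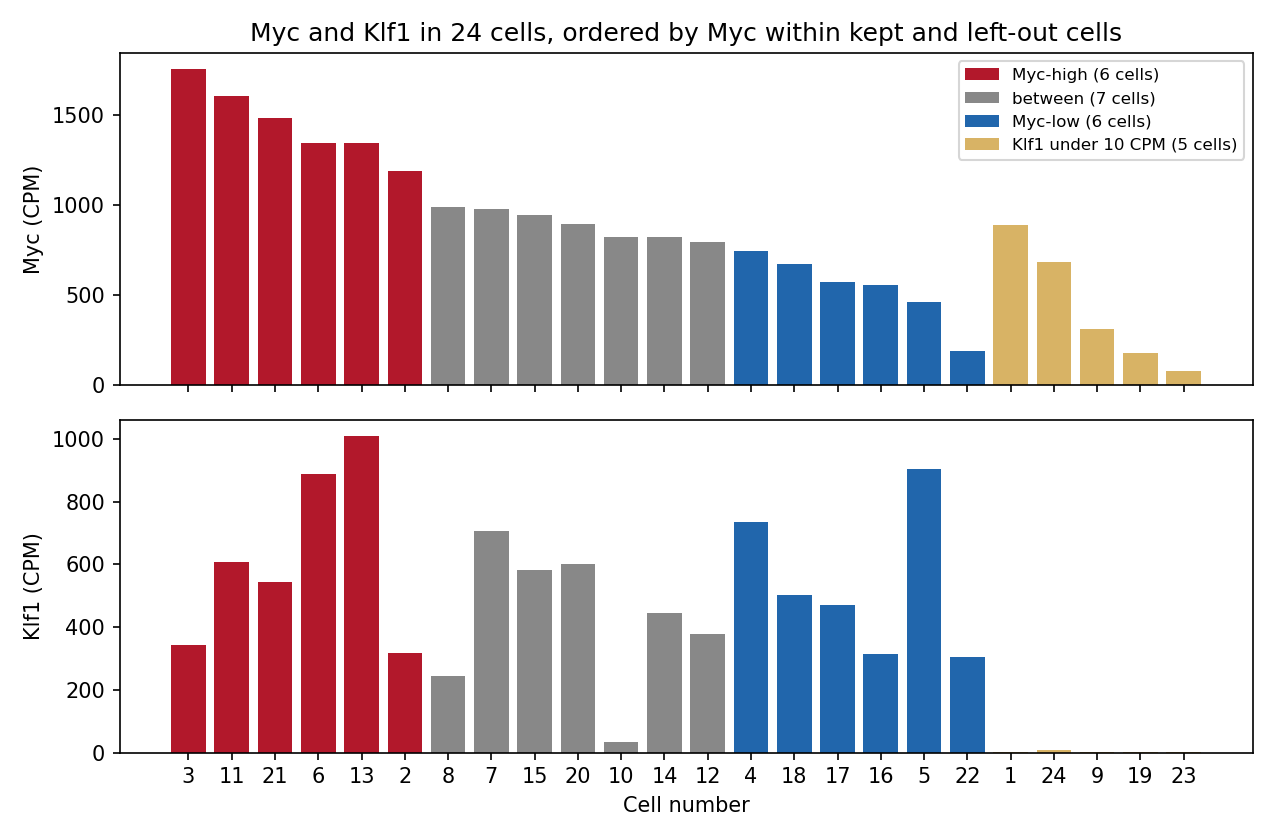
Myc (upper panel) and Klf1 (lower panel) in CPM for each of 24 cells, 1 bar a cell, with the 19 kept cells ordered by Myc on the left and the 5 cells under the Klf1 threshold on the right. Myc runs from 1755 to 190 CPM over the kept cells, with its largest relative step between the last of them, cells 5 and 22 at 462 and 190, while Klf1 shows no such order, from 32.4 to 1008 CPM.

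The 2 sets overlapped in the general measures of the libraries. Total counts ran from 1135880 to 2049760 in the Myc-high and from 1149970 to 2155010 in the Myc-low cells, and the genes with at least 5 counts numbered 6180 ± 603 and 5994 ± 777 (SD, n = 6 cells each). With every cell thinned to 876983 counts these were 5933 ± 515 and 5709 ± 699. Mitochondrially encoded genes took 3.30% ± 0.713 and 3.34% ± 0.662 of counts and ribosomal protein genes 7.60% ± 0.510 and 7.29% ± 1.02. Plate columns 1, 2 and 3 held 1, 2 and 3 of the Myc-high cells and 3, 2 and 1 of the Myc-low cells, so the sets are not balanced over columns. Spearman's rho with Myc over the 19 kept cells was -0.17 for total counts and 0.21 for genes with at least 5 counts. Of 26 erythroid regulators 22 passed the filter on low counts given below. Gata1 was at 5 or more counts in 12 of 12 cells, Gfi1b in 12 and Epor in 11, while Jak2 was in 3, E2f2 in 4, Sox6 and Bach1 in 1 each and Runx1t1 in 0.

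4 cells stood apart within their set. Cell 3, which has the most Myc, had 5013 such genes against 6195 to 6716 in the other Myc-high cells, and cell 4 had 5.31% ribosomal protein counts against 7.28% to 8.03% in the other Myc-low cells. Cell 16 had the most megakaryocyte RNA of the 12 cells, 1859 CPM summed over the 20 listed genes, and cell 22 had the least Myc. Markers of other lineages were summed in each cell. Over the 12 Myc-high and Myc-low cells lymphoid genes reached at most 4.61 CPM, macrophage genes 9.87 and endothelial and stromal genes 116. Among the cells between, lymphoid genes reached 76.5 CPM in cell 10 and macrophage genes 116 in cell 12. Larger sums there were 1531 CPM of hepatocyte genes in cell 10, and of megakaryocyte genes 1871 in cell 10 and 2462 in cell 12. Myeloid genes summed to 7.40 to 972 CPM in the Myc-high and 1.04 to 335 in the Myc-low cells. In the same order megakaryocyte genes summed to 16.8 to 1140 and 287 to 1859, and hepatocyte genes to 38.9 to 270 and 19.1 to 190. Mast cell and basophil genes summed to 102 to 950 and 215 to 904. The filter on low counts given below was passed by 4 of 18 myeloid, 8 of 20 megakaryocyte and 5 of 14 hepatocyte genes. Of the 10 mast cell and basophil genes only 1 passed it. Of the listed markers, 11 of 15 lymphoid, 10 of 12 macrophage, 7 of 12 endothelial and stromal, 9 of 18 myeloid, 6 of 20 megakaryocyte, 7 of 10 mast cell and basophil and 1 of 14 hepatocyte genes had 0 counts in all 12 cells. Pf4, Elane, Cd3e, C1qa, Cdh5 and Fcer1a were among these. Other members of the myeloid and megakaryocyte lists were present, such as Mpo and Itga2b, whose levels are given below. The part of depth, plate column and these other transcripts in the differences below was not tested.

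Over all 7672 genes with at least 5 counts in at least 6 kept cells, Myc left out, the sets differed by little on average. The size of a difference is log2 of the ratio of mean CPM + 1, Myc-high over Myc-low, and a value of 1 is a 2-fold difference. The median size was -0.01, with the middle 50% of genes between -0.54 and 0.46. The mean was at least 2-fold higher in the Myc-high cells for 894 genes (11.7%) and at least 2-fold lower for 1004 (13.1%). For 13 genes (0.169%) each of the 6 Myc-high values lay above each Myc-low value, and for 5 (0.0652%) each lay below, 18 genes (0.235%) in all. The mean was higher at any size for 49.3% of genes. Since Myc ranked the cells on the same libraries, nothing is read from these shares. Some genes would separate in this way under any split of these cells, and how many was not estimated. A gene could also pass the count filter through the set where it is high. As an alternative, each gene was centred on its plate column and read as a difference of mean log2(CPM + 1). On that scale 1636 genes were at least 2-fold higher and 1131 lower, and the median of all genes was 0.11. After centring 4 of the 13 genes still lay wholly above and 2 of the 5 wholly below.

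The partners and rivals of MYC did not move as a block: 8 of 14 network genes were measured, with 4 means higher, 4 lower and a median size of 0.19. Max (ENSMUSG00000059436, chromosome 12, 76937269 to 76962201), the obligate partner of MYC, stood at 14.97, 36.5, 2.99, 32.2, 1.85 and 0.675 CPM in the Myc-high cells in the order given above. It was at 0 in 5 Myc-low cells and at 0.517 CPM in cell 16. The sets did not overlap, but cell 2 rested on 1 count and cell 13 on 3, and the Myc-low cells held 1 count of Max in all against 142 in the Myc-high cells. The ratio of the pooled levels was 159 (95% counting interval 28.1 to 6321). That interval covers only counting error, with PCR copies taken as separate molecules, and leaves out the spread over cells. Max was also abundant in several cells between, which averaged 30.9 ± 31.0 CPM, above the Myc-high mean of 14.86 ± 15.99. Its rho with Myc over those 7 cells was -0.45. With 8 cells in each set the size changed from 3.87 to -0.34, so the separation holds for these 12 cells and is not kept with wider sets.

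Mxi1, which encodes an MXD-family repressor, showed the reverse layout. It stood at 145, 76.0 and 221 CPM in the Myc-low cells 4, 16 and 22 and at 0 in the other Myc-low cells, while among the Myc-high cells it reached 5.99 CPM in cell 21, 0.488 in cell 6 and 0 in the rest. The size was -5.16. Mga, the large MAX-binding repressor, averaged 62.0 ± 66.3 against 19.7 ± 32.1 CPM, led by 185 in cell 3, and the sets overlapped. Mnt, Mlx, Mlxip and Zbtb17, which encodes the MYC partner MIZ1, had sizes of -0.93, -0.23, -0.15 and 0.74, all with overlapping sets. Mxd1 had a size of 0.53 from 5 of 12 cells with a count, and Mycl and Mlxipl had 0 counts in all 12 cells. Outside the network, Pvt1, the noncoding gene next to Myc, was lower in the Myc-high cells, at 22.1 ± 25.6 against 68.5 ± 67.5 CPM. The RNA-binding protein gene Igf2bp2, whose product stabilises Myc RNA, averaged 52.9 ± 84.9 against 5.74 ± 13.7 CPM, with 219 of it in cell 3. In the same family Igf2bp1 had a size of 1.10 and Igf2bp3 of -0.99. The 25 measured genes listed as acting on Myc, which include these, had a median size of 0.14, with 13 means higher and 12 lower.

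E-boxes stand in the promoters of 3 of the 8 measured network genes. They are shown because Max, Mlx and Mnt are read above; the sequences are 30 bases of RefSeq promoters on GRCm38.p6, 5′ to 3′ on the gene's strand, with the motif CACGTG in capitals. The motif is its own reverse complement, so 1 search covers both strands. In Max it begins 3 bases before the start site, in Mlx 40 and in Mnt 123.
Max, chr12:76962234-76962263, minus strand: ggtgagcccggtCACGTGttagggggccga
Mlx, chr11:101087238-101087267, plus strand: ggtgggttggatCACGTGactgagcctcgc
Mnt, chr11:74830789-74830818, plus strand: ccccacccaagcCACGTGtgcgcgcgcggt

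Of all 32851 RefSeq promoters, each from 250 bases before to 50 after a start site, 7.15% hold the motif. Counted by gene, it is in 8.09% of all genes and in 13.3% of the 5941 measured genes that have a promoter in the table. With the same limit it was found in 14.1% of the genes at least 2-fold higher in the Myc-high cells and in 11.97% of those at least 2-fold lower. A match describes these letters and says nothing about binding.

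**Figure D2:**
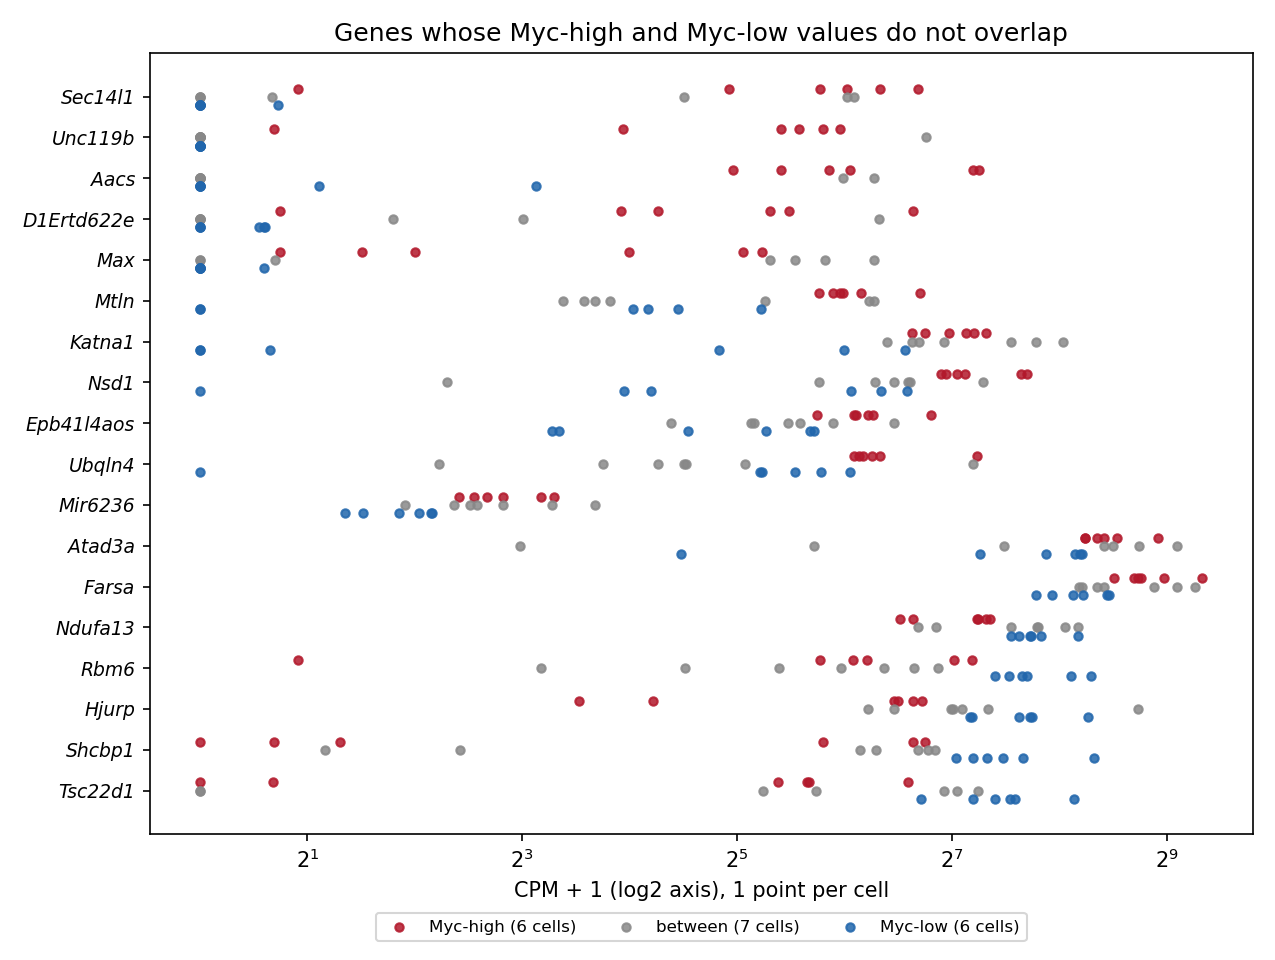
CPM + 1 on a log2 axis for the 18 genes whose Myc-high and Myc-low values do not overlap, 1 point a cell, with the Myc-high, between and Myc-low cells in separate rows for each gene. The 7 cells between do not always lie in the middle: Max was at 0 in 2 of them and above the Myc-high mean of 14.86 CPM in others, and Unc119b was at 0, as in the Myc-low cells, in 6.

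Of the 13 genes in which the Myc-high cells lay wholly above, 9 had at least 5 counts in each Myc-high cell. Mtln, which encodes a small protein of the inner mitochondrial membrane, stood at 62.5, 61.2, 103, 58.5, 70.3 and 53.3 CPM in the Myc-high cells. In the Myc-low cells it stood at 36.3, 15.3, 20.9, 17.1, 0 and 0, and the means were 68.2 ± 17.9 and 14.9 ± 13.7, a ratio of 4.57. In ranking genes by rho, predicted gene models, pseudogenes and rows without a symbol were passed over. Of the others Mtln followed Myc most closely, with a rho of 0.76 over the 19 kept cells and 0.71 over the 7 cells between. Aacs, the cytosolic acetoacetyl-CoA synthetase that feeds ketone bodies into lipid synthesis, stood at 151, 56.9, 65.3, 30.2, 41.3 and 145 CPM in the Myc-high cells. It was at 1.15 CPM in cell 4, 7.76 in cell 5 and 0 in the other Myc-low cells. Cells 8 and 7, the next in the ranking after the Myc-high set, held 76.2 and 62.2 CPM, and the remaining 5 cells between were at 0. Its rho with Myc was 0.74 over the kept cells and 0.80 over the cells between.

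Nsd1, a histone H3 lysine methyltransferase gene, ran from 118 to 206 CPM in the Myc-high and from 0 to 94.5 in the Myc-low cells, with means of 153 ± 39.5 and 45.4 ± 39.6. Katna1, the catalytic subunit of the microtubule-severing enzyme katanin, averaged 129 ± 23.6 against 30.7 ± 39.3 CPM, while the cells between were higher than both, at 153 ± 69.0. Sec14l1 and Unc119b, a lipid-binding trafficking factor, were close to absent from the Myc-low cells. Sec14l1 held 529 counts in the Myc-high and 1 in the Myc-low cells, a pooled ratio of 592 (95% counting interval 106 to 23431), and cell 3 rested on 1 count. Unc119b held 342 counts against 0, at least 128-fold higher against a floor of 3 counts over the set, and cell 13 rested on 1 count. D1Ertd622e held 354 against 3 counts, a ratio of 132 (44.8 to 644), with 1 count in cell 2. These intervals cover only counting error and treat PCR copies as if each were a molecule of its own.

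The remaining genes of this kind had smaller ratios. Farsa (chromosome 8, 84856989 to 84869257), the alpha subunit of phenylalanyl-tRNA synthetase, stood at 362, 424, 642, 413, 502 and 433 CPM in the Myc-high and 297, 220, 243, 346, 352 and 278 in the Myc-low cells. The means were 463 ± 98.8 and 289 ± 53.5, a ratio of 1.60. Atad3a, an ATPase of the inner mitochondrial membrane, averaged 353 ± 68.8 against 212 ± 108 CPM, and its nearest values were 300 in cell 2 and 295 in cell 4. Ubqln4, a ubiquilin that carries proteins to the proteasome, averaged 85.3 ± 31.9 against 39.6 ± 22.3 CPM. Epb41l4aos is an antisense gene and Mir6236 a microRNA locus, and without strand their reads cannot be told from those of overlapping genes.

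The 5 genes wholly below include a pair from cell division. Shcbp1, a protein of the midbody, stood at 54.6, 106, 0, 1.46, 0.617 and 98.6 CPM in the Myc-high and 131, 177, 159, 201, 146 and 318 in the Myc-low cells. Of the genes ranked by rho, with the same rows passed over as for Mtln, it ran most strongly against Myc. Its rho was -0.83 over the kept cells and -0.79 over the 7 cells between. Hjurp, the chaperone that loads the centromeric histone CENP-A, averaged 67.8 ± 42.2 against 203 ± 60.3 CPM. Its rho was -0.76 over the kept cells and -0.07 over the cells between, so the order holds between the sets and not inside the middle of the ranking.

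The other members are not division genes. Tsc22d1, a leucine zipper gene first known as induced by TGF-beta, averaged 39.3 ± 35.7 against 179 ± 58.7 CPM. Rbm6, an RNA-binding protein of splicing, averaged 77.9 ± 52.3 against 224 ± 56.3 CPM, with a rho of -0.72 over the kept cells and -0.86 over the cells between. Ndufa13, a subunit of respiratory complex I, averaged 135 ± 31.6 against 220 ± 35.6 CPM, a 1.63-fold difference. Frat1 and Dpysl2 completed the 5 genes most opposed to Myc, both with a rho of -0.75, and the iron-sulphur cluster scaffold Iscu was among the 5 most like it, at 0.71. These correlations are over cells that share 1 preparation and differ in depth. Those over the kept cells include the cells of both sets, and so repeat part of the comparison.

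The cells between give values that the comparison of the sets did not use. Of the 13 genes wholly above, 6 had a positive rho with Myc over those 7 cells, and of the 5 wholly below none had; over all genes 51.4% were positive. Over the 5 cells with little Klf1, 8 of the 13 and 4 of the 5 were positive, so the direction of the 5 genes was not kept there. Of the genes at least 2-fold higher 53.4% and of those at least 2-fold lower 46.6% were positive over the cells between. With 7 cells a rho moves widely, and genes of 1 cell share its depth.

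Enzymes that charge tRNAs, listed with their partner proteins Aimp1 and Aimp2, were the list of growth genes with the largest median between the sets. All 21 measured of 22 listed genes had a median size of 0.38, against -0.01 over all genes, and 16 means were higher and 5 lower. Yars, which charges tyrosine tRNA, had the largest size. It stood at 353, 399, 103, 219, 325 and 192 CPM in the Myc-high and at 160, 30.2, 49.6, 50.6, 152 and 1.74 in the Myc-low cells. That is a 3.59-fold ratio of means, with 5 of 6 Myc-high cells above each Myc-low cell. Lars and Rars, for leucine and arginine, followed with sizes of 0.93 and 0.91, and both were named after their values were seen. Among the 3 members of highest level, Kars and Nars had sizes of 0.38 and 0.20 and Vars -0.02. Cars, for cysteine, lay at the other end with -0.72. Yars was the sole member past 2-fold (4.76%, against 11.7% of all genes that were at least 2-fold higher) and Farsa the sole one with sets apart, which 0.169% of all genes were in that direction. The median stayed between 0.31 and 0.47 when any 1 of the 12 cells was left out.

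The motif CACGTG was found in 4 of the 14 measured members with a promoter in the table (28.6%, against 13.3% of measured genes). The sizes were 0.47 for Aars, 0.27 for Farsb, 0.59 for Iars and -0.01 for Tars. Yars, the member of largest size, and Farsa, the sole one with sets apart, hold none in the same window. Lars and Rars have no promoter in the table. Whether the motif bears on these levels was not tested. The 4 sites are shown because these genes can be set beside Yars and Farsa, which lack one. They begin 146, 39 and 69 bases before the start site in Aars, Farsb and Iars and 19 after it in Tars.
Aars, chr8:111033684-111033713, plus strand: agtcaaccctgtCACGTGacactccatgtc
Farsb, chr1:78488919-78488948, minus strand: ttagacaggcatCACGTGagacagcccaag
Iars, chr13:49682049-49682078, plus strand: gaccaatcgccaCACGTGttgtttgtaggt
Tars, chr15:11399622-11399651, minus strand: tccgcctgtggcCACGTGgcgcacgcgcag

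Averaged per cell as mean log2(CPM + 1), the synthetase list stood at 7.25, 7.92, 7.89, 7.87, 8.08 and 8.13 in the Myc-high cells. In the Myc-low cells it stood at 7.83, 7.58, 7.25, 7.51, 7.03 and 6.09. Cell 3, the cell with most Myc, was the lowest Myc-high cell, and the other 5 lay above each Myc-low cell on this scale. Summed in CPM, which weights abundant members more, the list put 1 of 6 Myc-high cells above the highest Myc-low cell, cell 4 at 6958 CPM. The average's rho with Myc was 0.54 over the 19 kept cells, 0.72 without cell 3 and 0.46 over the cells between. No rho was taken without cell 22, which had the least Myc and the lowest average of the Myc-low cells, so its part was not tested. Gene by gene, 10 of the 21 members (47.6%) had a positive rho over the cells between, against 51.4% of all genes, and the median rho was 0. The same average had a rho of 0.53 with the count of genes at 5 or more counts, whose part in the relation was not tested.

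**Figure D3:**
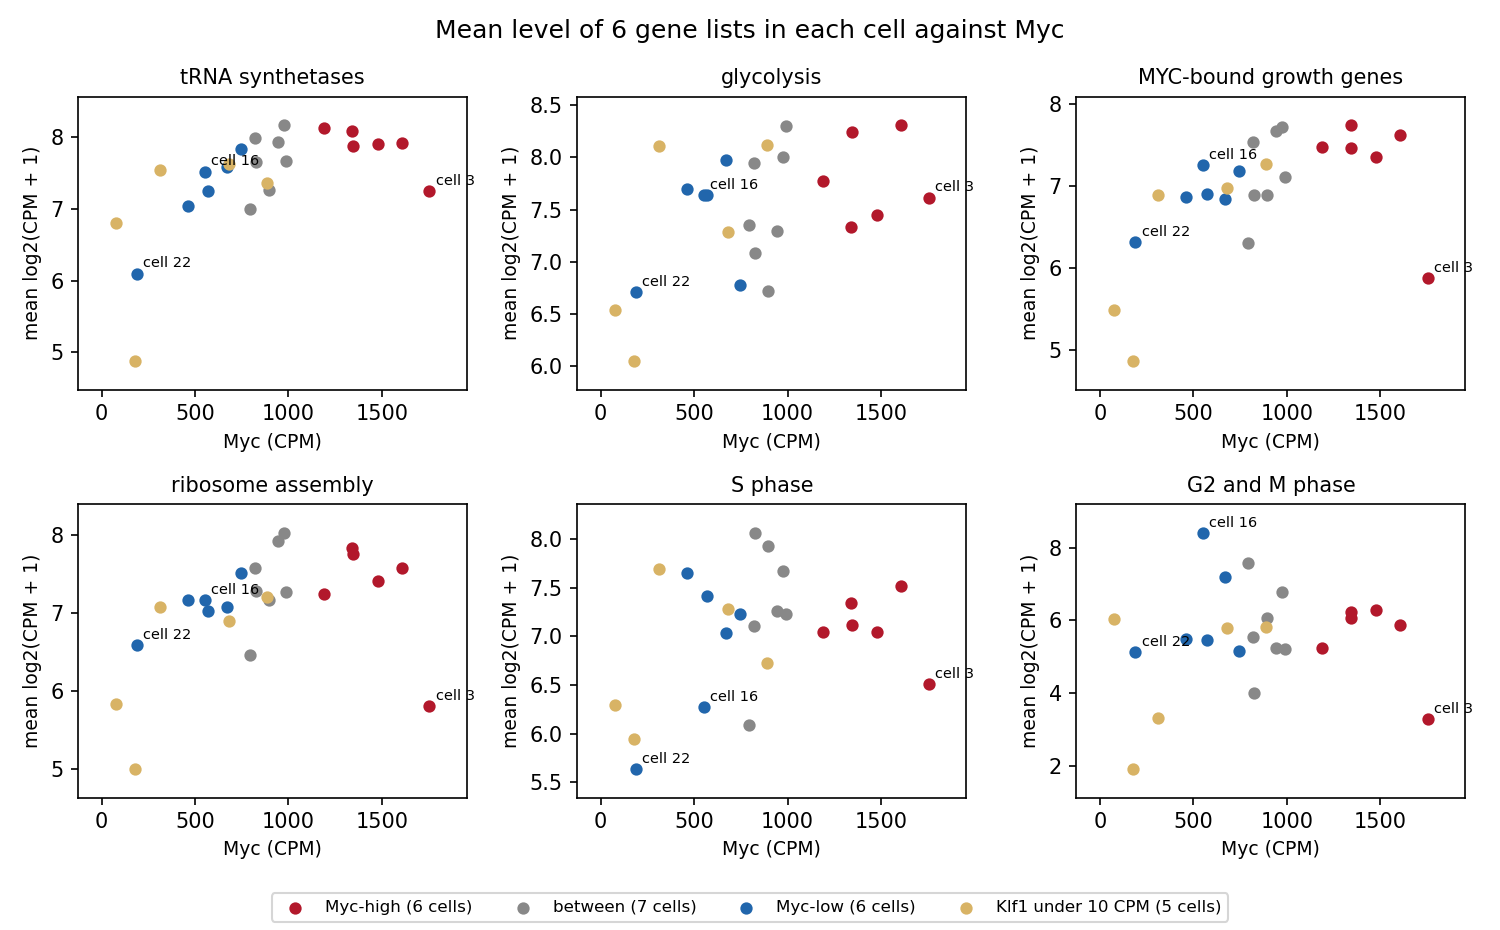
Mean log2(CPM + 1) of a gene list against Myc in CPM, 1 point a cell and 1 panel a list, coloured by set. In the panel of tRNA synthetases 5 of 6 Myc-high cells lie above each Myc-low cell, and cell 3, at 1755 CPM of Myc, lies below the other Myc-high cells at 7.25.

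Lists of growth and ribosome assembly genes had smaller positive medians. The list of 53 growth genes known to be bound by MYC, which spans metabolism and division as well as ribosome production, had a median size of 0.21, with 34 means higher and 19 lower, and 48 ribosome assembly genes had a median of 0.16, with 29 higher and 19 lower. In the growth list 4 genes were at least 2-fold higher (7.55%, under the 11.7% of all genes) and 0 lower: Hk2, Supv3l1, Ung and Rrp12, with sizes of 2.49, 2.42, 1.35 and 1.31. Supv3l1 and Ung, a mitochondrial RNA helicase and uracil-DNA glycosylase, were named after their values were seen. Rrp12, a ribosome export factor, averaged 86.5 ± 67.7 against 34.4 ± 62.9 CPM, and Plk4, the centriole kinase, was the lowest member of the growth list at -0.77. Npm1 and Ncl, abundant nucleolar proteins, averaged 4464 ± 837 against 3519 ± 570 and 2378 ± 658 against 2054 ± 343 CPM, both with overlapping sets.

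The growth list averaged 5.87 in cell 3 on the mean log2(CPM + 1) scale, below the 7.35 to 7.74 of the other Myc-high cells and below each Myc-low cell, which ran from 6.32 to 7.25. Its rho with Myc was 0.41 over the kept cells and 0.66 without cell 3, and that of ribosome assembly 0.43 and 0.68. Cell 3, the cell with most Myc, was the only cell left out of a rho. Cell 22, with the least Myc, had the lowest average of the Myc-low cells in both lists. How far each rho rests on cell 22 was not tested. Over the 7 cells between, the rho was 0.61 for the growth list and 0.43 for ribosome assembly, and 40 of 53 growth genes were positive (75.5%, against 51.4% of all genes). The growth average also had a rho of 0.66 with the count of genes at 5 or more counts, and the lists of translation factors and chaperones, at 76.7% and 75%, had like shares of positive genes. The motif CACGTG was found in 14 of 48 growth genes with a promoter in the table (29.2%) and in 9 of 42 ribosome assembly genes (21.4%), against 13.3% of measured genes; the growth list was drawn up as one of MYC targets.

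Ribosomal protein genes differed by less. None of the 79 differed 2-fold, against 11.7% of all genes at least 2-fold higher and 13.1% lower. Their median size was 0.05, with 54 means higher and 25 lower (68.4% higher, against 49.3% of all genes). Over the cells between 55 of them (69.6%) had a positive rho with Myc. Translation factors had a median of -0.03, nucleotide and one-carbon enzymes -0.04, nuclear respiratory chain genes 0.02 and mitochondrially encoded genes 0.01. Proteins of the mitochondrial ribosome had a median of 0.16 over 75 genes, and 6 of them (8%, against 11.7% of all genes) were at least 2-fold higher and 0 lower, led by Mrps6 at 1.41. Amino acid transport and polyamine genes had medians of 0.14 and 0.04, each with 2 of 12 genes at least 2-fold lower (16.7%, near the 13.1% of all genes) and 0 higher.

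**Figure D4:**
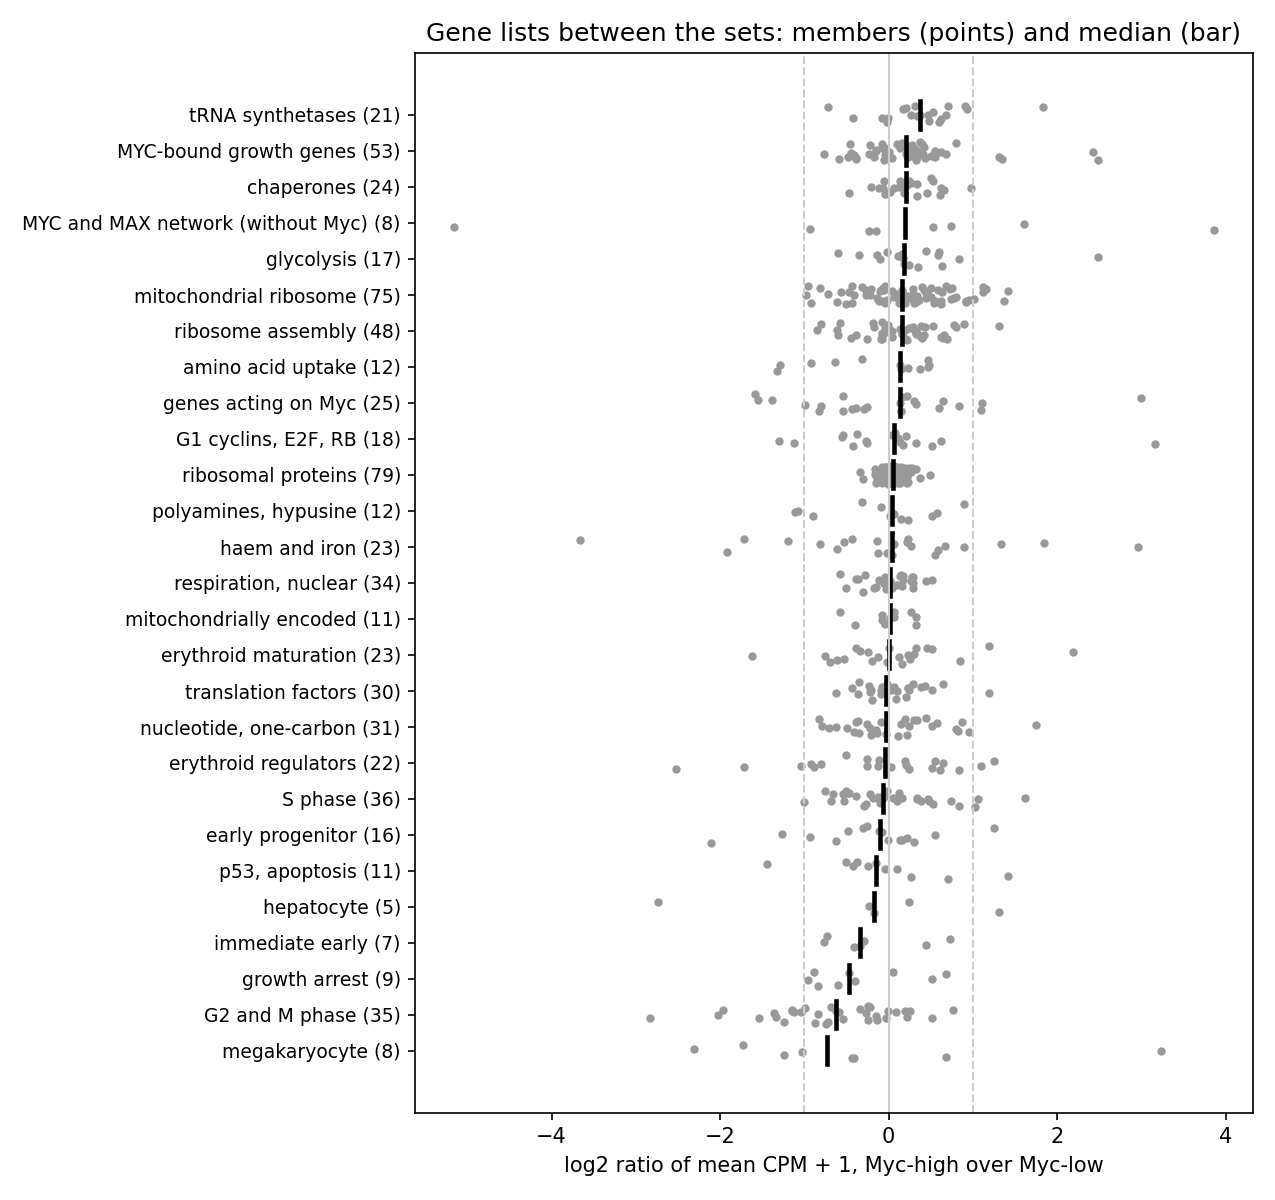
Size of the difference between the sets (log2 ratio of mean CPM + 1, Myc-high over Myc-low) for each measured gene of a list, 1 point a gene, with a bar at the list's median. The median is 0.38 for tRNA synthetases and -0.62 for genes of G2 and M phase, and close to 0 for ribosomal proteins, with narrow spread, and for erythroid lists, with wide spread.

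Glycolytic enzymes and chaperones were slightly higher in the Myc-high cells. Summed over the 19 listed glycolysis genes, the level was 12197 ± 1464 CPM in the Myc-high and 10278 ± 221 in the Myc-low cells (SD, n = 6 cells each), and 5 of 6 Myc-high cells lay above the highest Myc-low cell, cell 3 being the exception at 10440 against 10541. On the mean log2(CPM + 1) scale used for the other lists, 2 of 6 Myc-high cells did so. The summed level had a rho with Myc of 0.55 over the 19 kept cells and of -0.39 over the cells between. Of 17 measured genes 12 means were higher and 5 lower, with a median size of 0.18. Aldoa, the aldolase of the main pathway, stood at 1021, 1977, 2085, 2163, 1229 and 1902 CPM in the Myc-high and 1121, 664, 1145, 1296, 967 and 1472 in the Myc-low cells. The means were 1730 ± 481 and 1111 ± 278, with 4 of 6 Myc-high cells above each Myc-low cell. Ldha, lactate dehydrogenase A, averaged 4081 ± 687 against 3598 ± 395 and Tpi1 1564 ± 329 against 1402 ± 496 CPM. Hk2, the inducible hexokinase, had the largest size at 2.49, but 162 CPM of it were in cell 3 and 0 in cell 13. The glucose transporter gene Slc2a3 had the lowest at -0.60.

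Ldha holds the motif at a pair of places in 1 promoter, 145 and 48 bases before the start site, shown because it is a textbook MYC target with a small difference here.
Ldha, chr7:46845647-46845676, plus strand: ggtgtcgcagcaCACGTGgagccactcttg
Ldha, chr7:46845744-46845773, plus strand: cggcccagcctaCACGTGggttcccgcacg

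Of 24 chaperone genes 18 means were higher and 6 lower, with a median size of 0.20. There were 0 past 2-fold, against 11.7% of all genes at least 2-fold higher and 13.1% lower. Hsp90aa1 stood at 1943, 2668, 2585, 3642, 3621 and 2177 CPM in the Myc-high and 2116, 1907, 2044, 1903, 1790 and 1803 in the Myc-low cells. All but cell 3 of the Myc-high cells lay above each Myc-low cell, and the Myc-low values were close together. Hsp90ab1 averaged 4992 ± 746 against 4204 ± 492 and Hspa8 3323 ± 1432 against 2922 ± 1054 CPM. Hsph1 had the largest size at 0.97, with 15.9 CPM in cell 3 and 614 in cell 13.

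Genes of G2 and M phase mostly had lower means in the Myc-high cells, though the median cell of the set was not lower. Of 35 measured genes 29 means were lower and 6 higher, with a median size of -0.62, and 11 were at least 2-fold lower (31.4%, against 13.1% of all genes) and 0 higher. Ttk, a spindle checkpoint kinase, was the extreme. It stood at 0.880, 0, 2.395, 0.488, 48.7 and 0.675 CPM in the Myc-high and 146, 5.57, 76.3, 87.3, 101 and 0 in the Myc-low cells. The mitotic kinesins Kif11 and Kif20a and topoisomerase Top2a had sizes of -2.02, -1.96 and -1.54, and were named after their values were seen. Mki67, the proliferation marker, averaged 74.7 ± 28.4 against 149 ± 140 CPM, and Cdc25c, a phosphatase that starts mitosis, had the highest size at 0.76. Hmgb2, Cks1b and Tubb4b, the members of highest level, had sizes of 0.08, -0.24 and 0.19.

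Cell 16 carried much of that difference. Summed over the list, cell 16 held 15872 CPM, while the other Myc-low cells ran from 5400 to 8376 and the Myc-high cells ran from 2860 in cell 3 to 8000. The set medians of this sum were 6499 CPM in the Myc-high and 6281 in the Myc-low cells. Those of the mean log2(CPM + 1) were 5.98 and 5.48. Without cell 16 the median was -0.16 and 4 genes were at least 2-fold lower, and without cell 3 the median was -0.43. The list's average over the 19 kept cells had a rho with Myc of -0.06. S phase genes had a median of -0.06 that changed sign with several settings. The motif CACGTG was found in 2 of 30 G2 and M phase genes with a promoter in the table (6.67%, against 13.3% of measured genes). Growth arrest genes, of which 9 of 22 were measured, had a median of -0.47 with 6 means lower and 3 higher. None was past 2-fold, against 11.7% of all genes at least 2-fold higher and 13.1% lower.

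The erythroid lists had medians near 0 in these sets. The 22 measured erythroid regulators had a median size of -0.04, the 23 maturation genes 0.01 and the 23 haem and iron genes 0.03. Without the Klf1 filter, which brings cells low in Klf1 into the Myc-low set, these were 0.38, 0.96 and 0.64. Gata1, the master erythroid regulator, averaged 382 ± 148 against 419 ± 103 CPM and Klf1 617 ± 282 against 538 ± 237. Epor, the erythropoietin receptor, averaged 211 ± 142 against 178 ± 120 and carbonic anhydrase Car2 988 ± 415 against 981 ± 345 CPM. Car1 ran from 0 to 1248 CPM in the Myc-high and from 0 to 2194 in the Myc-low cells. These genes overlapped widely between the sets.

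Single genes of the sort and of iron handling differed more. Kit, the receptor that carries CD117, stood at 118, 246, 258, 399, 96.9 and 418 CPM in the Myc-high and 553, 333, 227, 346, 720 and 767 in the Myc-low cells. The means were 256 ± 135 and 491 ± 223, a 1.92-fold lower level, and 3 Myc-low cells lay above every Myc-high cell. Cd24a, which encodes CD24, averaged 161 ± 126 against 34.5 ± 45.7 CPM, with 4 Myc-high cells above each Myc-low cell, and Tfrc, which encodes CD71, 65.0 ± 48.2 against 55.4 ± 61.0. Abcb10, a mitochondrial transporter used in haem synthesis, averaged 78.1 ± 69.9 against 9.14 ± 15.3 CPM, and Aco1, the iron regulatory protein that doubles as cytosolic aconitase, 5.64 ± 8.73 against 82.8 ± 88.1. Iscu averaged 120 ± 40.2 against 32.7 ± 39.5 CPM. In the haem and iron list 3 genes were at least 2-fold higher and 4 lower (13.04% and 17.4%), near the 11.7% and 13.1% of all genes.

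Early progenitor genes had a median size of -0.10, which was -0.77 without cell 3. Gata2, a transcription factor of early progenitors, stood at 1487 CPM in cell 3, 165 in cell 6 and at most 17.96 in the other Myc-high cells, against 547, 533, 225 and 58.0 in the Myc-low cells 18, 16, 22 and 5 and 0 in cells 4 and 17. Its size was 0.30 with cell 3 and -2.49 without it. Mpo, the neutrophil peroxidase, likewise rested on cell 3 with 269 CPM. The 8 measured megakaryocyte genes had a median of -0.74, and -0.34 without cell 16. Itga2b, which encodes the depleted antigen CD41, averaged 132 ± 165 against 179 ± 87.3 CPM, with 457 in cell 3. Cell 3 thus joined the most Myc with the most Gata2 and Itga2b among the 12 cells, and the lowest average of the growth list.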

How the data were processed

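The authors deposited 1 table of raw counts for 24 cells, with a row for each gene, made with STAR 2.4 and featureCounts on GRCm38, per the submitters' processing notes. The annotation release is not given in the sources used here, nor are the counting options. Symbols and coordinates came from GENCODE M21, and promoters from RefSeq on GRCm38.p6.

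Counts were divided by the cell's total, which ran from 876983 to 2155010 over the 24 cells. A count of 0 allows up to 3 counts, 1.39 to 2.64 CPM in a kept cell. Fold sizes used a pseudocount of 1 CPM. No p-value was made, because the cells are 1 sample. Python 3.11.15, pandas 2.3.3, numpy 2.4.6, scipy 1.17.1 and, for scaling alternatives, edgeR 4.0.16 and DESeq2 1.42.0 in R 4.3.3 were used, and the measures were tested on simulated data.

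The cells, the 32 gene lists and the naming rule were chosen with earlier results of these data known. The rule names the MYC network, up to 12 non-overlapping genes in each direction, the 3 highest members and the extremes of each list, the 5 genes most and least like Myc, and fixed erythroid, sort and lineage genes. Predicted gene models, pseudogenes and rows without a symbol are passed over by the rule. Other genes were named after their values were seen. Some genes that the rule names are left out of the text. The symbols Mars1 and Epb49 were not matched to a row. Alternatives were other scalings, count filters, set sizes, Klf1 thresholds, size measures, pseudocounts, plate column centring and leaving out each cell. A requirement of 5 counts in each cell of the higher set was added after seeing the data.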

Additional observations from a re-analysis of the deposited data

Results flagged for a closer look

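Within each set of 6 cells, general measures and list averages were searched for a cell whose gap to its nearest neighbour exceeded Dixon's 95% critical value, 0.625 of the set's range. Of 64 searches 14 found one, and they fall on 4 cells. The searches reuse the same cells and some lists share genes, so their number is not set against a chance rate. List averages are means of log2(CPM + 1). The causes were not tested.

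Cell 3 had the most Myc and the lowest values of the Myc-high set in several measures. It had 5013 genes with at least 5 counts against 6195 to 6716 in the other Myc-high cells. Its list averages were 5.87 for MYC-bound growth genes, 5.81 for ribosome assembly, 7.25 for tRNA synthetases, 4.83 for polyamine genes, 8.66 for chaperones and 3.28 for G2 and M phase.

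Cell 4, in the Myc-low set, was low in ribosomal RNA and protein genes. Ribosomal protein genes took 5.31% of its counts and the most abundant ribosomal RNA gene 2.30%. Its list averages were 8.97 for ribosomal proteins and 7.13 for mitochondrially encoded genes.

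Cell 22, with the least Myc of the 19 kept cells, had averages of 7.95 for translation factors and 5.95 for nucleotide and one-carbon enzymes, each the lowest of the Myc-low set. Cell 16 had an average of 6.41 for megakaryocyte genes against 2.33 to 3.78 in the other Myc-low cells.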

How the results depend on the processing

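The medians of tRNA synthetases, MYC-bound growth genes, ribosome assembly and glycolysis stayed above 0 and that of G2 and M phase below 0 under each alternative run. Counts moved more. Genes at least 2-fold higher and lower numbered 2161 and 2419 with no count filter, 340 and 400 with 5 counts in at least 12 kept cells, and 569 and 650 with a pseudocount of 10. The count higher was 1674 for differences of mean log2(CPM + 1), 1609 for ratios of medians and 1636 after plate column centring. Genes wholly above and below numbered 95 and 104 with 4 cells in each set, where fewer values have to separate, 3 and 0 with 8 cells and 6 and 3 after centring. With 5 counts in at least 12 kept cells 8 lay wholly above, and 7 G2 and M phase genes were at least 2-fold lower. Without the Klf1 filter, which replaced 3 Myc-low cells, 10 genes lay wholly below, of which 0 were among the 5, and 15 wholly above, of which 2 were among the 13. After centring 4 of the 13 and 2 of the 5 were shared.

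The S phase median was 0.14 with 4 cells in each set, 0.036 with 8, 0.11 without the Klf1 filter, 0.16 for differences of mean log2(CPM + 1), 0.22 after centring and 0.089 without cell 5. Max had a size of -0.34 with 8 cells in each set and Mga -0.34 without the Klf1 filter, where Mpo had -3.56, and Mpo ran from -1.25, without cell 3, to 4.73 when single cells were left out. Leaving out each cell in turn gave 889 to 1133 genes at least 2-fold higher, 999 to 1152 lower, 18 to 31 wholly above, 8 to 18 wholly below and 4 to 13 G2 and M phase genes at least 2-fold lower; the S phase median ran from -0.21 to 0.089. The 13 and 5 genes were among those of each such run. That had to be so, since leaving out a cell cannot make separate sets overlap, and nothing is read from it. The causes were not tested.

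No paired analysis was possible because the cells form 1 group and carry no shared replicate numbers. Depth limits Max, Sec14l1, Unc119b and D1Ertd622e most, since each rests on 1 count in at least 1 Myc-high cell.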
